A study of Mus musculus with 2 samples.

Results

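Serpins are proteins of 1 shared fold. Most of them inhibit serine or cysteine proteases by offering a reactive loop as bait, and a few have lost that activity and act as chaperones or signals. The genes described here were the 8 serpin genes Serpinb6a, Serpinb9, Serpina3n, Serping1, Serpinf2, Serpine2, Serpinh1 and Serpinf1, chosen by name with earlier results of these arrays known. A probe set is a group of short probes on the array that together measure 1 transcript. Single-gene probe sets were found for 7 of the 8, among 8251 genes measured in all, and they numbered 9. Serpine2, which encodes the thrombin and urokinase inhibitor protease nexin 1, had no probe set under that name or an older one and was not analysed here. The intensities of these genes had been seen before they were chosen, so their ratios are given as a description, with no test.

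The samples were total RNA of the mouse mesoangioblast clones D351 and D16, with 1 array (U74A) for each. Mesoangioblasts are progenitor cells associated with vessels that can form several mesodermal tissues. The origin of both clones was the same, dorsal aorta taken from embryos of the C57BL6 strain on embryonic day 9.5. The aorta was cultured for 5 days, and single cells were then cloned on embryonic fibroblasts treated with Mitomycin C, in RPMI with 20% fetal calf serum, and expanded on gelatin. Each group is thus 1 clone, grown with no treatment that differed between them in the labels. With 1 array per clone there is no spread between cultures, no SD and no p-value, and every difference is a size measured between these 2 arrays. Since RNA was measured in bulk, fewer cells making a transcript and less transcript per cell cannot be told apart.

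Intensities were scaled to a common median, and a value below 17.5, the floor, was treated as too dim to give a level. At or above the floor were 59.3% of non-control probe sets in D351 and 60.6% in D16. These shares follow from the floor, set at the mean of the 40th percentiles of the arrays, and are not detection rates. Ratios are D351 over D16 throughout, on the log2 scale or as a fold. The median log2 ratio of the 6096 genes with a ratio was -0.03. Different probe sets of the same gene differed with an SD of 0.52 on the log2 scale (806 genes), and this was the only part of the error that could be measured. The labelled cell type was checked against 13 marker genes, of which 8 reached the floor in 1 or both clones. Kdr, Kit, Cdh5 and Tek, genes of endothelial and blood progenitors, and Meox2 were below it in both. Cd34, a surface protein of vascular progenitors, measured 6.72 in D351 (below the floor) and 475 in D16, whereas Pdgfra (714 in D351 and 762 in D16) and Thy1 (1041 in D351 and 1534 in D16) were measured in both. A dimmer probe set of Pdgfra measured 18.7 in D351, near the floor, and 54.4 in D16, past 2-fold towards D16. Past 2-fold towards D351 were the pericyte receptor gene Pdgfrb (197 in D351 and 54.3 in D16) and the smooth muscle gene Tagln (1884 in D351 and 643 in D16). Acta2 (1686 in D351 and 940 in D16), Mef2d (515 in D351 and 277 in D16) and the endothelial gene Pecam1 (20.3 in D351 and 30.8 in D16, near the floor) were within 2-fold. For Actb the control probe set at the 3' end over that at the 5' end gave 1.37 in D351 and 1.81 in D16, and its part in the ratios below was not tested.

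Most of the measured serpin genes had higher levels in D351. Of the 7, 6 had a higher level in D351 and 1, Serpinf2, a higher level in D16. The median log2 ratio over all genes with a ratio was -0.03. A difference of 2-fold or more with the higher level in D351 was found in 4 genes, Serpinb6a, Serpina3n, Serpinh1 and Serpinb9, and with the higher level in D16 in 0. Over all genes with a ratio, the shares past 2-fold were 10.6% in the direction of D351 and 8.84% in that of D16. At 3-fold or more the serpin counts were 2 in the direction of D351 and 0 in that of D16, beside 4.15% and 2.61% of all genes. At 1.5-fold or more they were 5 in the direction of D351 and 1 in that of D16, beside 21.1% and 20.9% of all genes. Because the 7 genes were chosen with these ratios known, nothing is read from these counts, that by sign included. Their median log2 ratio was 1.09, with a range from -0.61 for Serpinf2 to 4.90 for Serpinb6a. The plot of levels by probe set shows the values of both clones.

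**Figure D1:**
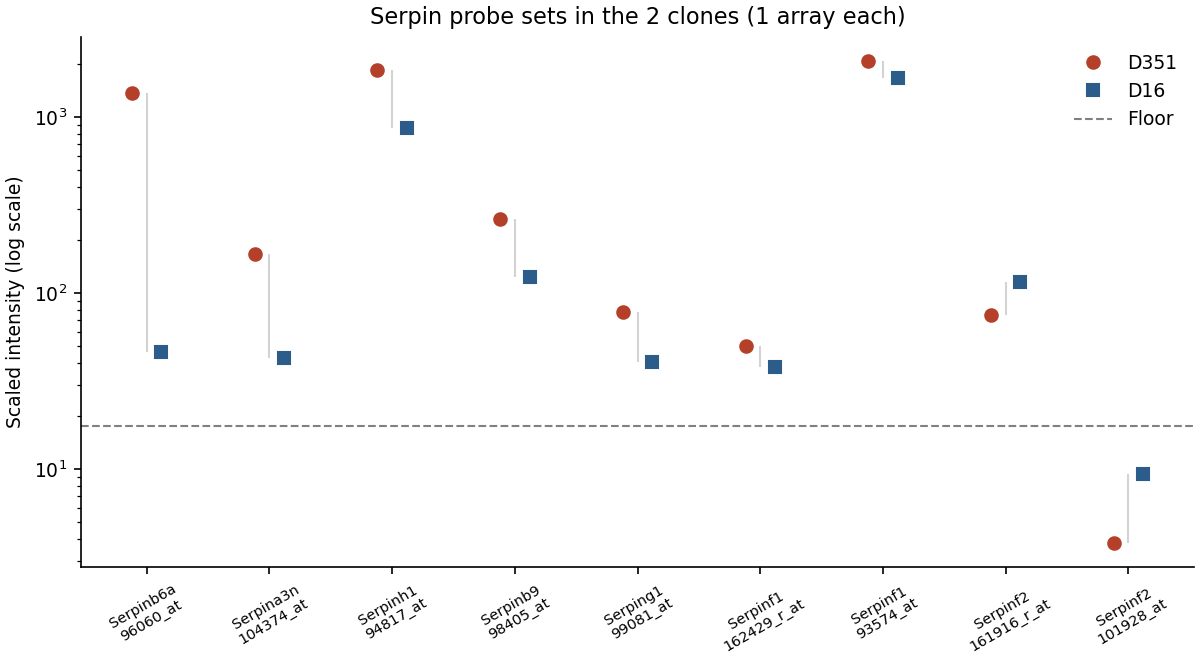
Scaled intensity (log axis) of the 9 probe sets of the 7 measured serpin genes, with circles for D351 and squares for D16, 1 array each, and the floor of 17.5 as a dashed line. Serpinb6a stood at 1382 in D351 and 46.3 in D16, and 1 of the probe sets of Serpinf2 lay below the floor in both clones; levels are to be compared within a probe set only.

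Serpinb6a encodes an intracellular serpin of clade B, which inhibits trypsin-like proteases and cathepsin G. Its probe set (96060_at) measured 1382 in D351 and 46.3 in D16, with deposited intensities of 1357.6 in D351 and 47.1 in D16. The D16 value was above the floor, so the ratio was measured on both sides, at 29.9-fold higher in D351. With values below the floor set to it, 6 of the 6096 genes with a ratio, Serpinb6a included, had a log2 ratio as high as its 4.90. Both levels reached the floor in 5195 of the 6096, and the ratios of the others are lower bounds. This count, and the shares of genes with a ratio at least as high given for other serpins below, could thus be larger. The log2 ratio of Serpinb6a was 8.96 times the SD between probe sets at its level (0.55). Serpinb6a had no other probe set against which this size could be checked. Serpinb6a and Serpinb9 lie among related serpin genes, several of which had no single-gene probe set. A contribution of these to either signal was not tested.

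Serpinb9, also of clade B, encodes an inhibitor of granzyme B that in cytotoxic lymphocytes protects the cell from its own granule protease. Its probe set (98405_at) measured 263 in D351 and 124 in D16, a log2 ratio of 1.09. The value lay just past 2-fold and was 2.14 times the SD between probe sets at its level, and 9.32% of genes had a ratio at least as high. With 16 added to each value in place of the floor, the log2 ratio was 0.995, just short of 2-fold. Gzmb, the gene of granzyme B, measured 19.4 in D351, near the floor, and 3.14 in D16, below it.

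Serpina3n is an acute phase gene that in mice can be induced in liver and in other tissues, and its secreted product inhibits granzyme B and neutrophil proteases. Its probe set (104374_at) measured 167 in D351 and 42.9 in D16, a log2 ratio of 1.96, or 3.88-fold. A ratio at least as high was found in 2.43% of genes. The ratio was 4 times the SD between probe sets at its level. The Serpina3 genes are a family of close copies, so a contribution of other family members to this signal is possible and was not tested.

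Serping1 encodes the C1 inhibitor, which blocks the C1r and C1s proteases of complement and plasma kallikrein. Its probe set (99081_at) measured 77.9 in D351 and 40.3 in D16, a log2 ratio of 0.95, just short of 2-fold. Both levels were low, and with the floor raised to the 60th percentile the ratio was 0.55. Serpinf2 encodes alpha2-antiplasmin, the plasma inhibitor of plasmin, made chiefly by liver and kidney. One probe set (161916_r_at) measured 75.2 in D351 and 115 in D16, a log2 ratio of -0.61, or 1.53-fold higher in D16. The other (101928_at) was below the floor in both clones, at 3.77 in D351 and 9.33 in D16. The suffix r marks a probe set whose probes did not meet all the design rules of the array, so a level of Serpinf2 rests on that single probe set, and the other gave none.

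The 2 remaining genes encode serpins that do not inhibit proteases. Serpinh1 encodes HSP47, a chaperone of the endoplasmic reticulum that binds procollagen, and its gene is induced by heat shock. Its probe set (94817_at) measured 1853 in D351 and 864 in D16, a log2 ratio of 1.10. A ratio at least as high was found in 8.91% of genes, and the value was 2.01 times the SD between probe sets at its level. Serpinf1 encodes pigment epithelium-derived factor, a secreted protein that restrains vessel growth. Its brighter probe set (93574_at) measured 2092 in D351 and 1677 in D16, a log2 ratio of 0.32. The dimmer probe set (162429_r_at) measured 49.7 in D351 and 37.9 in D16, a log2 ratio of 0.39. The 2 probe sets of Serpinf1 thus gave ratios closer to each other than the SD between probe sets of 0.52, and both ratios were smaller than that SD.

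**Figure D2:**
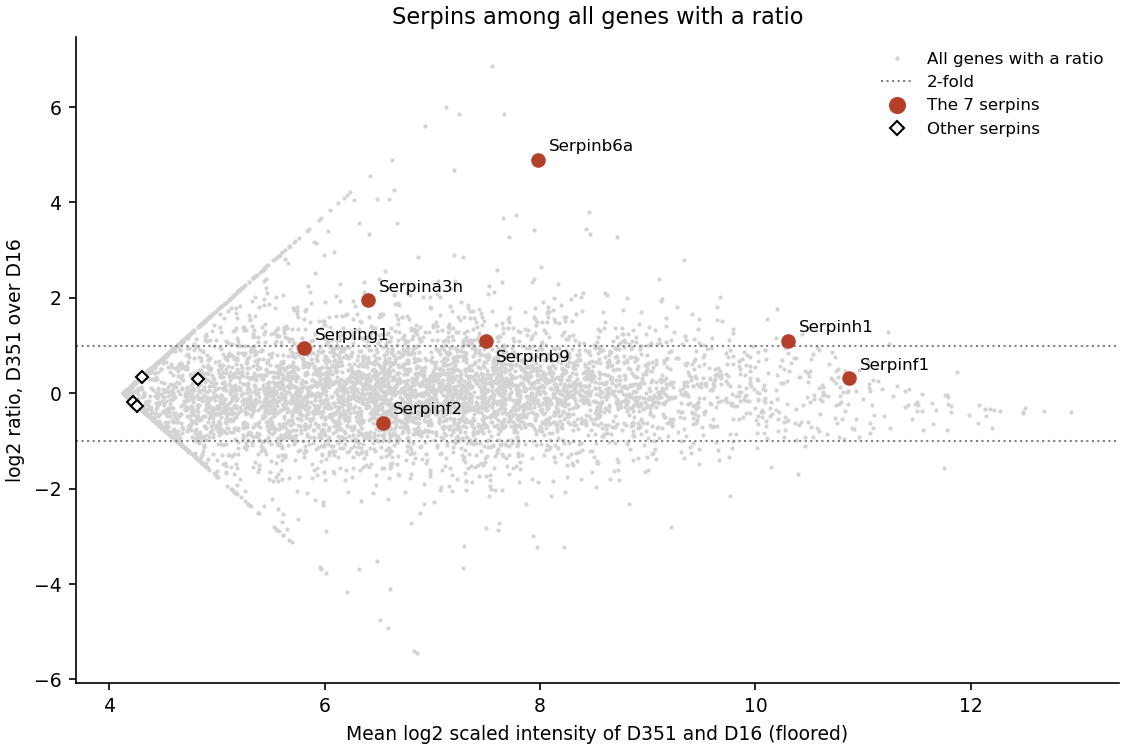
The log2 ratio of D351 over D16 (vertical axis) against the mean log2 scaled intensity of both clones (horizontal axis) for all genes with a ratio (grey), the 7 serpin genes (red) and the other serpins of the array (open diamonds), with dotted lines at 2-fold. Serpinb6a stood apart at 4.90, Serpina3n at 1.96, Serpinb9, Serpinh1 and Serping1 lay close to the upper 2-fold line, and the other serpins lay at the dim end.

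The upstream sequences of the 4 genes past 2-fold towards D351 are shown as a description. These genes were picked by their ratios, and shared regulation was not tested. Each is the 250 bases before the annotated start in RefSeq (build GRCm38.p6), read 5′ to 3′ on the strand of the gene. Of the 8 named genes, 7 had such a window, and Serping1 had none in the table used. Capitals mark the letters of a motif searched on both strands: GAAA, any 2 bases and GAAA again (the core of the interferon-stimulated response element), TTCNNNGAA (the core of the gamma-activated site, bound by STAT proteins), GAANNTTC (the core of the heat shock element) and TATAAA (the TATA box).
Serpinb6a, chr13:34002795-34003044, minus strand: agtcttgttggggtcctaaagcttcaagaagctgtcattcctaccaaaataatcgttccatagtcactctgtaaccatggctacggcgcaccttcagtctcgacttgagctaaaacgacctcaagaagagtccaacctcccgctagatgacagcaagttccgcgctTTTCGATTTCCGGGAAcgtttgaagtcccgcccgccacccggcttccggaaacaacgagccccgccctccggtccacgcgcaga
Serpinb9, chr13:33004291-33004540, plus strand: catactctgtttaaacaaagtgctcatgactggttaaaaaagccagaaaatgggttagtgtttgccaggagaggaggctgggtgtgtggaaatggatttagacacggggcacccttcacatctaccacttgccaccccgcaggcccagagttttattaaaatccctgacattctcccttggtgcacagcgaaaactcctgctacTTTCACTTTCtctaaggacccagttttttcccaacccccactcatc
Serpina3n, chr12:104406458-104406707, plus strand: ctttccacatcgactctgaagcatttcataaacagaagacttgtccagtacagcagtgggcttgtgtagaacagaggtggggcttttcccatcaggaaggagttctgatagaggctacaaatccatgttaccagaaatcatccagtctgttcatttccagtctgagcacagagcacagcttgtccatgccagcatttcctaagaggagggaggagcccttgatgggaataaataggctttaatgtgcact
Serpinh1, chr7:99353240-99353489, minus strand: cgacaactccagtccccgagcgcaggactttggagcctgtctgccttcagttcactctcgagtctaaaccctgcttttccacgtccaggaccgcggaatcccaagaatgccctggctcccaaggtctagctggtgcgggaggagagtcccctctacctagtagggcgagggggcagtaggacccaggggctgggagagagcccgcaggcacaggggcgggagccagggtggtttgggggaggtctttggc
The core of the interferon-stimulated response element was present, on the strand opposite the gene, in the Serpinb6a window, 84 to 75 bases before the start, and in the Serpinb9 window, 46 to 37 bases before it. Among all 32851 windows of this length 2.98% held it. In the Serpinb6a window TTCNNNGAA overlapped that match, 77 to 69 bases before the start, and 7.02% of all windows held this motif. GAANNTTC, held by 6.69% of all windows, and TATAAA, held by 12.4%, were in 0 windows of the 8 named genes, Serpinh1 included. A second annotated start of Serpinb6a (chr13:33936084-33936333) held 0 of the motifs, and the arrays do not tell which start was used. Matches are descriptions of letters and not evidence of binding, and a missing match says only that these letters are not in the window.

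The positions of the genes were taken from RefSeq for gene order only. Serpinb6a and Serpinb9 lie in the serpin cluster of chromosome 13. Within it Serpinb6c, the protein-coding gene next to Serpinb6a, measured 12.5 in D351 and 10.4 in D16, below the floor in both. Serpinb9e measured 12.3 in D351 and 12.2 in D16, also below it. Serpinb1a measured 22.3 in D351 and 4.42 in D16. Within 8 protein-coding genes on either side of Serpinb6a, 3 genes had a ratio, and 1 of them was past 2-fold with the higher level in D351. These genes, named after their values were seen, were Bphl (105 in D351 and 36.5 in D16, log2 ratio 1.52), Tubb2a (log2 ratio 0.27) and Psmg4 (log2 ratio -0.61). Serpinf1 and Serpinf2 are next to each other on chromosome 11 and had ratios of opposite sign, 0.32 and -0.61. These were 0.58 and -1.18 times the SD between probe sets at their levels, and that of Serpinf2 came from its suffixed probe set alone. Of 7 genes with a ratio within 8 places of Serpinf2, Serpinf1 among them, 3 were past 2-fold with the higher level in D351, among them the next gene, Wdr81 (448 in D351 and 160 in D16, named after its values were seen). Over the same distance, past 2-fold towards D351 were 2 of 6 genes with a ratio around Serpinf1, 1 of 7 around Serping1, 0 of 6 around Serpinh1, 0 of 3 around Serpinb9 and 0 of 2 around Serpina3n. Past 2-fold towards D16 were 0 around each of the 7 serpin genes. These counts are small, and the windows of Serpinf1 and Serpinf2 share genes. Several of the ratios are lower bounds set by the floor. Gsc measured 32.2 in D351 and 0.786 in D16, and Dicer1 33.9 in D351 and 10.1 in D16. These 2 genes around Serpina3n were thus below the floor in D16, as was Serpinb1a near Serpinb9. Foxf2 near Serpinb9 and Gdpd5 and Arrb1 near Serpinh1 were below the floor in D351. Of these genes, all but Serpinb1a were named after their values were seen. Over all genes the share past 2-fold towards D351 was 10.6%.

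Apart from the named genes, 17 further serpin genes, with angiotensinogen (Agt, a serpin without inhibitory function) among them, were represented by 20 probe sets. Of these genes 13 were below the floor in both clones. They were Agt, Serpina10, Serpina12, Serpina1e, Serpina5, Serpina6, Serpinb2, Serpinb3a, Serpinb5, Serpinb6c, Serpinb9e, Serpinc1 and Serpini1. The 4 others were dim. Serpina1c, a mouse alpha1-antitrypsin gene, measured 31.4 in D351 and 25.5 in D16 by a probe set of a kind that can match related genes. Below the floor in 1 clone were Serpinb1a (22.3 in D351 and 4.42 in D16), Serpina1b (9.67 in D351 and 19.9 in D16) and Serpind1, the gene of heparin cofactor II (4.68 in D351 and 20.9 in D16). A further 4 probe sets were annotated to several serpin genes and named none of them, and 1 of the 4 reached the floor, at 29.72 in D351 and 29.97 in D16. Of the 4 further serpin genes with a ratio, 0 were past 2-fold. For 3 of them the ratio is a lower bound set by the floor, so this count does not tell how far they differed. The named genes had been chosen with their levels known, so they and the 17 were not compared by a test.

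Serpinh1 was set beside the genes of its clients. Of 17 procollagen chain genes with a ratio, 13 had a level in D351 that was 2-fold or more above that in D16, and 0 were past 2-fold in the other direction. The median log2 ratio of the 17 was 1.24, beside -0.03 over all genes. Dimmer probe sets of Col1a1 and Col1a2 gave log2 ratios of 0.42 and -0.62, short of 2-fold. With the median of the probe sets of each gene, the list median was 1.21. The ratio of Serpinh1, 1.10, was lower than that of 10 of the 17 and higher than that of 7. The largest ratios were those of the fibrillar chain gene Col5a1 (1636 in D351 and 405 in D16), Col6a2 (803 in D351 and 238 in D16), the basement membrane chain gene Col4a2 (1352 in D351 and 470 in D16) and Col8a1 (408 in D351 and 152 in D16). Of 20 genes that fold, modify or cross-link collagen, 8 were past 2-fold with the higher level in D351 and 0 with the higher level in D16, and the median was 0.88. Kdelr3, which encodes a retrieval receptor of the endoplasmic reticulum, measured 561 in D351 and 140 in D16, by probes that may match related genes. Sparc, a collagen-binding matrix protein gene, measured 2179 in D351 and 636 in D16, the prolyl 4-hydroxylase gene P4ha1 421 in D351 and 150 in D16, and P3h3 215 in D351 and 80.5 in D16. The ratio of Serpinh1 was higher than that of 14 of these 20.

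Heat shock genes, the regulatory class of Serpinh1, had a median log2 ratio of 0.14 (0.005 with the median of probe sets). Of 16 with a ratio, 4 were past 2-fold towards D351 and 0 towards D16. The inducible chaperone genes Hspa1a (131 in D351 and 18.8 in D16, near the floor) and Hspa1b (270 in D351 and 75.8 in D16) were past 2-fold, as were Cryab and Bag3, whose probe sets can match related genes. A dimmer probe set of Bag3, without a suffix, gave a log2 ratio of 0.755, short of 2-fold. Serpinh1 had a higher ratio than 13 of the 16. The collagen lists above and the lists of this and the following paragraphs were drawn up with earlier results of these arrays known.

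Beside Serpina3n and Serping1, acute phase and complement genes had a median log2 ratio of 0.19 (-0.20 with no floor), and 5 of 19 were past 2-fold towards D351 and 1 towards D16. Saa3, a serum amyloid gene made outside the liver, measured 397 in D351 and 23.7 in D16, near the floor. With values below the floor set to it, Saa3 was the only gene of the 19 with a ratio above that of Serpina3n. Ratios with D16 below the floor are lower bounds, so the place of those genes beside Serpina3n is not known. Il6ra (40.9 in D351 and 7.76 in D16), named after its values were seen, is among them. Il6st, the shared receptor subunit of the interleukin 6 family, measured 693 in D351 and 212 in D16, and Pros1, the gene of the anticoagulant protein S, 138 in D351 and 57.1 in D16. In the other direction the ferroxidase gene Cp measured 3.16 in D351, below the floor, and 147 in D16, so it was at least 8.41-fold higher in D16. Interferon response genes, beside Serpinb9, had a median of 0.51 (1.11 when suffixed probe sets were left out), and 10 of 22 were past 2-fold towards D351 and 2 towards D16. Ifit3 measured 230 in D351 and 38.6 in D16, Irgm1 156 in D351 and 31.8 in D16, and Isg15 395 in D351 and 91.0 in D16. Ifi202b measured 0.407 in D351, below the floor, and 223 in D16. The ratio of Serpinb9 was higher than that of 12 of the 22 and lower than that of 10.

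A list of serine and cysteine proteases, which holds known serpin targets, had 27 genes on the array. Of these 14 were below the floor in both clones, among them those of thrombin (F2), urokinase (Plau), plasma kallikrein (Klkb1) and cathepsin G (Ctsg). Of the 13 with a ratio, 5 were past 2-fold towards D351 and 0 towards D16, and the median was 0.41. Htra1, a secreted serine protease gene, measured 803 in D351 and 75.2 in D16. The gene of the lysosomal cysteine protease cathepsin H, Ctsh, measured 148 in D351 and 5.90 in D16, at least 8.48-fold higher in D351. The tissue plasminogen activator gene Plat measured 672 in D351 and 284 in D16, and Ctsk, of cathepsin K, 72.5 in D351 and 31.3 in D16. C1ra, of complement C1r, a target of the Serping1 product, measured 236 in D351 and 110 in D16, by probes that may match related genes. Plg, of plasminogen, the precursor of the target of the Serpinf2 product, measured 10.3 in D351 and 23.2 in D16. C1ra, Plg and the 4 genes given as below the floor were named after their values were seen.

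Receptors, cofactors and partners of serpins and of their proteases had a median of -0.24, which turned positive with quantile scaling (0.03), with scaling on the hybridization controls (0.15) and with the floor at the 60th percentile (0.03), and 2 of 11 were past 2-fold towards D351 and 1 towards D16. F3, the gene of tissue factor, measured 1311 in D351 and 93.9 in D16. Thbd, of thrombomodulin, measured 93.4 in D351 and 7.57 in D16, at least 5.34-fold higher in D351. The urokinase receptor gene Plaur went the other way, with 47.8 in D351 and 140 in D16. Lrp1, which encodes the endocytic receptor that clears serpin and protease complexes, measured 1425 in D351 and 716 in D16, 1.99-fold higher in D351, and was named after its values were seen.

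Inhibitors of other families went both ways, with 3 of 12 past 2-fold in each direction and a median of 0.07, which turned negative with no floor (-0.25), with the floor at the 25th percentile (-0.03) and with the median of probe sets (-0.09). The tissue factor pathway inhibitor gene Tfpi measured 252 in D351 and 5.60 in D16, at least 14.4-fold higher in D351. The metalloprotease inhibitor genes Timp2 (226 in D351 and 52.5 in D16) and Reck (189 in D351 and 64.0 in D16) were higher in D351 too. Slpi, which encodes a secreted inhibitor of leukocyte proteases, measured 3.87 in D351, below the floor, and 768 in D16, so it was at least 43.9-fold higher in D16. Its other probe sets had log2 ratios of -2.87 and -0.26, so the size of that difference varied between probe sets while its sign was the same.

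**Figure D3:**
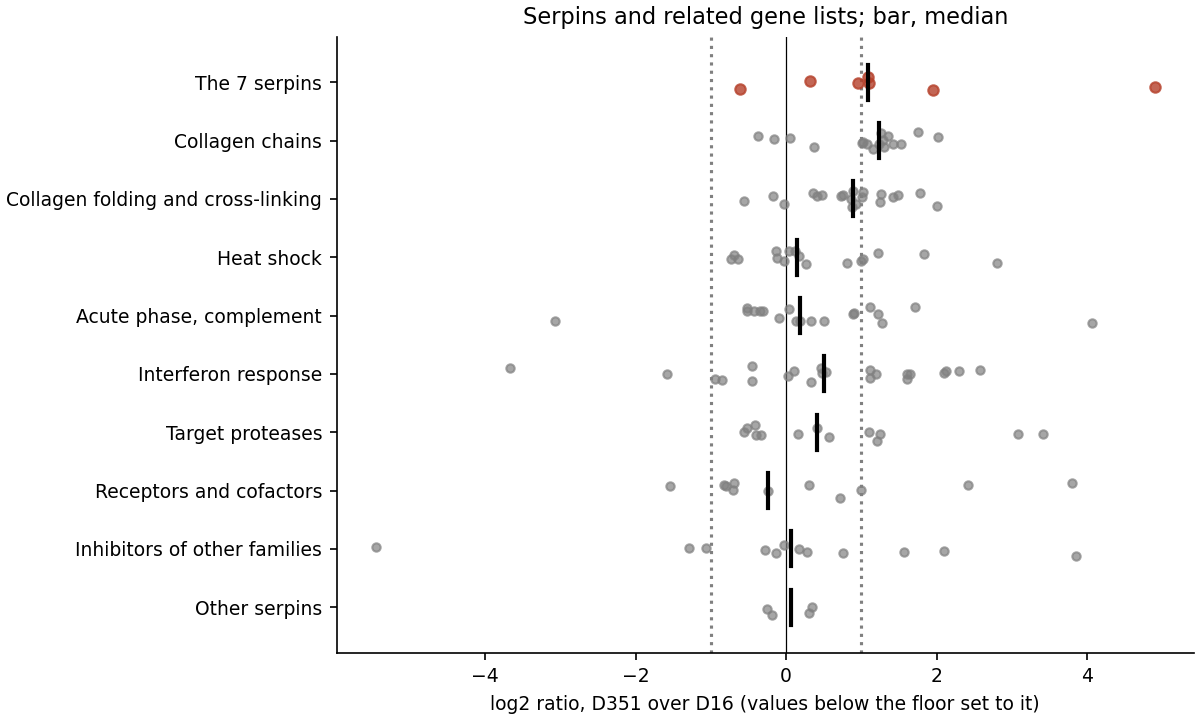
The log2 ratio of D351 over D16 (horizontal axis) for each of the 7 serpin genes (red) and for the genes of the related lists (grey), with black bars at the medians and dotted lines at 2-fold; values below the floor were set to it. The collagen lists lie mostly to the right of 0, with medians of 1.24 and 0.88, and inhibitors of other families spread from -5.46 to 3.85.

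Markers of cells that could carry serpin transcripts into the samples were also read. Of 12 hepatocyte genes on the array 11 were below the floor in both clones, among them Alb, Afp, Apoa1 and Ttr, and Cps1 measured 7.33 in D351 and 30.7 in D16. The summed level of these 12 was 92.6 in D351 and 93.5 in D16. Values below the floor are counted in this sum and in those that follow, so nearly equal sums are not read as equal levels. Of 11 lymphocyte genes 8 were below the floor in both, Ptprc, Cd3e, Gzma and Prf1 included, and the summed level was 113 in D351 and 81.9 in D16. Besides Gzmb, Cd4 (35.3 in D351 and 10.02 in D16, a lower bound of 2.02-fold towards D351) and Cd79a (24.1 in D351 and 19.6 in D16) reached the floor in 1 or both clones. Of 13 macrophage and mast cell genes 8 were below it in both, Lyz2, Adgre1 and Tyrobp included, and the summed level was 309 in D351 and 463 in D16. Of the other 5, Lgals3 measured 83.8 in D351 and 301 in D16, past 2-fold towards D16, and Cd68 36.95 in D351 and 3.73 in D16, past 2-fold towards D351. Cd14 measured 129.5 in D351 and 70.1 in D16, and Csf1r (18.2 in D351 and 21.9 in D16) and Cpa3 (7.13 in D351 and 18.0 in D16) were at the dim end. Fibroblast genes were read because fibroblasts had served as the feeder layer. Of these, 12 of 13 reached the floor in 1 or both clones, with a summed level of 14620 in D351 and 10610 in D16. Thy1 and Pdgfra of this list are also among the mesoangioblast markers, and Col1a1, Col1a2 and Col3a1 among the procollagen chain genes. The list therefore does not tell feeder cells from cells of the clones. In the fibroblast list 4 genes were past 2-fold towards D351, Col1a1, Col1a2, Col3a1 and Lum, and 1, S100a4, towards D16. Dimmer probe sets of Col1a1 and Col1a2 were short of 2-fold (log2 ratios 0.42 and -0.62), while those of Col3a1 were past it (1.55 and 1.255). The part of remaining feeder cells in the levels of the serpin genes was not tested.

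The sign of the ratio of each of the 7 genes was the same under every setting tried that gave a value. Over 10 settings the log2 ratio ranged from 4.49 to 5.29 for Serpinb6a, from 1.63 to 2.35 for Serpina3n, from 1.05 to 1.49 for Serpinh1, from 0.995 to 1.48 for Serpinb9, from 0.55 to 1.34 for Serping1 and from 0.27 to 0.71 for Serpinf1. For Serpinf2 it ranged from -0.67 to -0.22 over 9 settings, because its single probe set above the floor is dropped when suffixed probe sets are left out. Scaling on the 9 hybridization controls moved the median of all genes to 0.34 and gave the highest ratio of each gene. In that setting the log2 ratio of Serping1 was 1.34, past 2-fold, so 5 genes were past 2-fold in D351. Of all genes past 2-fold 83% were then higher in D351, against 54.5% with scaling on the median.

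**Figure D4:**
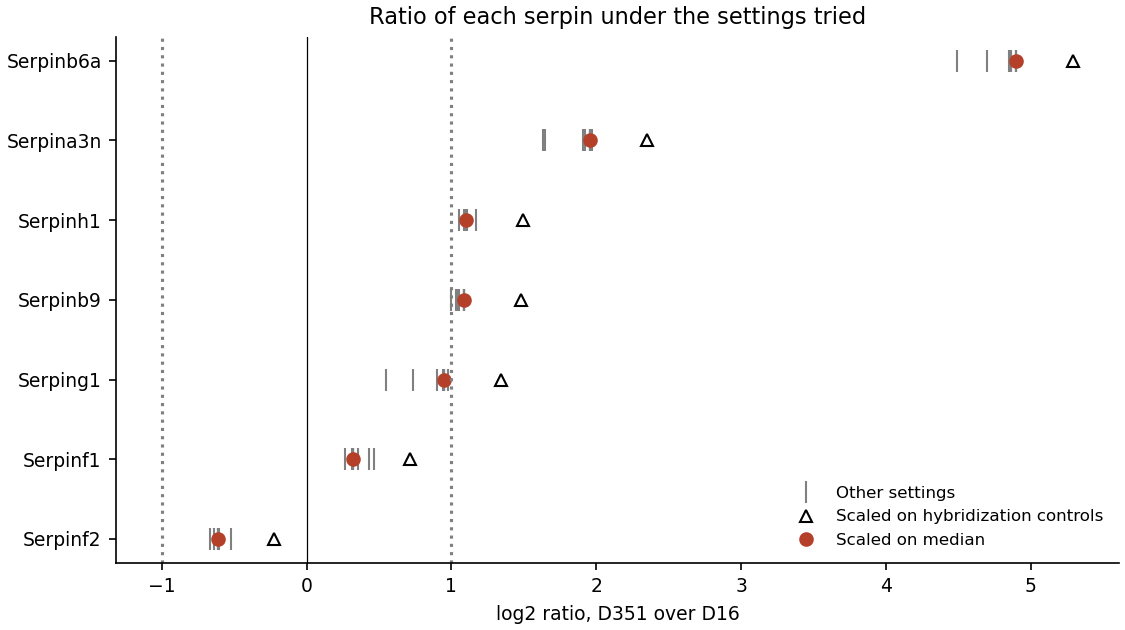
The log2 ratio of D351 over D16 (horizontal axis) of each of the 7 serpin genes with the arrays scaled on their median (red circles), scaled on the hybridization controls (open triangles) and under the other settings tried (grey ticks), with dotted lines at 2-fold. No gene crossed 0, while Serpinb9 and Serping1 had values on both sides of the upper 2-fold line.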

How the data were processed

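The authors deposited 1 linear intensity per probe set and array. How probes were summarised and background removed, and any genome build, is not given in the sources used here. The 2% trimmed mean of the deposited intensities was 100.1 in both D351 and D16, as after scaling to a common target. A single gene symbol was listed for 10833 of the 12422 probe sets that are not controls. The platform table is for version 2 of the array, the labels say U74A only, and symbols were updated by Entrez number to RefSeq GRCm38.p6.

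The median log2 level over probe sets that reached the floor in both arrays was made equal (factors 1.02 for D351 and 0.983 for D16). The floor of 17.5 was the mean of the 40th percentiles of the 2 arrays, and lower values were set to it before ratios were taken, so such ratios are lower bounds and list medians hold them as such. Each gene was represented by its brightest probe set by mean level. Calls were ratios of at least 2-fold, with no test possible at 1 array per clone, and the functions were tested on simulated data. Alternatives covered scaling, floor, pseudocount of 16, probe set rule and threshold. The members and lists were chosen with earlier results of these data known. Named were all 8 members, every other serpin with a single-gene probe set, per list the up to 4 genes furthest apart among those past 2-fold, and markers of cell types. Other genes are marked as named after their values were seen. No gene was named for likeness to a member, since 2 arrays give 1 ratio. The number of arrays limits the precision. Python 3.11.15, numpy 2.4.6, pandas 2.3.3, statsmodels 0.14.6 (loess) and matplotlib 3.10.9 were used.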

Additional observations from a re-analysis of the deposited data

How the results depend on the processing

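No paired analysis was possible because there is 1 array for each clone, and no replicate could be left out for the same reason. All 69 values of the 7 serpin genes under the alternatives moved by less than the SD between probe sets. They are not 69 separate checks. The lower floor and no floor could not move them, since the levels shown for all 7 lay above the floor. The probe set rules could act only on Serpinf1 and Serpinf2, the genes with 2 probe sets. In D351 the number of serpin genes past the threshold was 4 at 2-fold (3 with the pseudocount, 5 with scaling on the hybridization controls), 5 at 1.5-fold and 2 at 3-fold, and in D16 it was 0 at 2-fold and 1 at 1.5-fold. Over all genes at 2-fold the counts were 645 higher in D351 and 539 in D16. They were 1209 in D351 and 247 in D16 with scaling on the hybridization controls, so that 83% of calls were higher in D351 against 54.5%. They were 406 and 324 with the floor at the 60th percentile, 1155 and 1253 with no floor, 1287 and 1277 at 1.5-fold, and 253 and 159 at 3-fold, in each case D351 and then D16. With the floor at the 25th percentile 857 were higher in D351 and 852 in D16. Of 137 list medians under the alternatives 131 moved by less than that SD. The other 6 were the macrophage list (0.70 with the hybridization controls, against -0.04), the hepatocyte list (0.45 with the floor at the 25th percentile and 0.00 with no floor, against -0.81), the lymphocyte list (-0.47 with no floor and 0.89 with the pseudocount, against 0.30) and the interferon list (1.11 with probe sets without suffix only, against 0.51). A lower or higher floor changes which genes have a ratio; the cause of the other shifts was not tested. Genes below the floor in both clones, which have no ratio, were 11 of 12 in the hepatocyte list, 8 of 11 in the lymphocyte list, 8 of 13 in the macrophage list and 2 of 24 in the interferon list.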
